A study of Mus musculus with 12 samples.

Results

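The mitochondrial genome of the mouse is a small circle that is transcribed inside the organelle and encodes core subunits of the respiratory chain and of ATP synthase. The mRNAs of 10 of these genes are described here, as chosen by gene identifier: mt-Nd1 (ENSMUSG00000064341), mt-Nd2 (ENSMUSG00000064345), mt-Nd3 (ENSMUSG00000064360), mt-Nd4 (ENSMUSG00000064363), mt-Nd5 (ENSMUSG00000064367), mt-Cytb (ENSMUSG00000064370), mt-Co1 (ENSMUSG00000064351), mt-Co2 (ENSMUSG00000064354), mt-Co3 (ENSMUSG00000064358) and mt-Atp6 (ENSMUSG00000064357). They are 10 of the 56941 genes listed, and of the 13 protein genes that RefSeq names on the mitochondrial chromosome. The rule uses their identifiers and no measured value. All 10 were found and passed the filters on low values.

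Both strands of mitochondrial DNA are transcribed as long precursors that cover many genes, and the precursors are cut into single mRNAs, often at the tRNAs that lie between them. Most of these mRNAs then receive a short poly(A) tail, which differs in length and origin from that of nuclear mRNAs. The level of a mitochondrial mRNA therefore depends on shared transcription and on processing and stability of its own. Alkbh5, the enzyme altered in the cells, removes the methyl group of N6-methyladenosine (m6A) from RNA and is known mainly as a nuclear protein.

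The samples were made from E14TG2a, an embryonic stem cell line of the mouse, which was grown with LIF and with inhibitors of MEK (PD0325901) and GSK3 (CHIR99021), which hold such cells in a naive state. The 3 genotypes were wild type (WT), Alkbh5 knockout (KO), and an Alkbh5 that lacks the intrinsically disordered C-terminal region (del-cIDR). PolyA RNA was fragmented and sequenced before m6A immunoprecipitation (input) and after it (IP), with 2 input and 2 IP samples per genotype. The mRNA values come from the 6 input libraries. The labels do not say whether replicates were separate cultures or whether an altered genotype was 1 clone. The p-values therefore concern the spread between these libraries only, and limma takes part or all of that spread from a trend over all genes.

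The input libraries held 19918177 to 36678609 reads in genes, and 205 to 83214 reads of each member. Counting error of a member's reads was therefore 0.347% to 6.98% of their number, the largest in mt-Nd3. Both of the following scales are used, because they answer different questions. The deposited values are reads times 1 factor per library, and that factor is 1273 divided by 427 and 602 in WT, 1031 and 1273 for KO, and 459 and 547 with del-cIDR, in replicate order. These whole numbers fit the input reads of an added m6A control in the deposited m6A table, so the deposited scale gives reads relative to that control. Counting error of the control adds to the deposited values, is shared by all members of a library, and is not included above. The RPM scale divides each library by its own total in genes, times 1000000 reads, and gives the place of a member among the other genes. The files pair no other identifier with a name, so stem cell markers and nuclear genes of the respiratory chain were not analysed here.

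On the deposited scale the 10 mRNAs were lower in both KO libraries than in both WT libraries, and so were most other genes. Their deposited values summed to 652363 and 540714 in WT, to 304929 and 226078 for KO, and to 757463 and 394418 with del-cIDR. The KO libraries were the lowest, and the del-cIDR libraries lay on either side of both WT libraries. The sum was 596539 ± 78948 in WT, 265503 ± 55756 in KO and 575940 ± 256711 in del-cIDR (SD, n = 2 each). The exact permutation test (two-sided) has a smallest p of 0.333 in groups of 2, which was reached for KO against WT and for del-cIDR against KO. Its p was 1 for del-cIDR against WT. In bulk RNA, fewer molecules per cell and less RNA per unit of control, from cell number or otherwise, cannot be told apart.

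**Figure D1:**
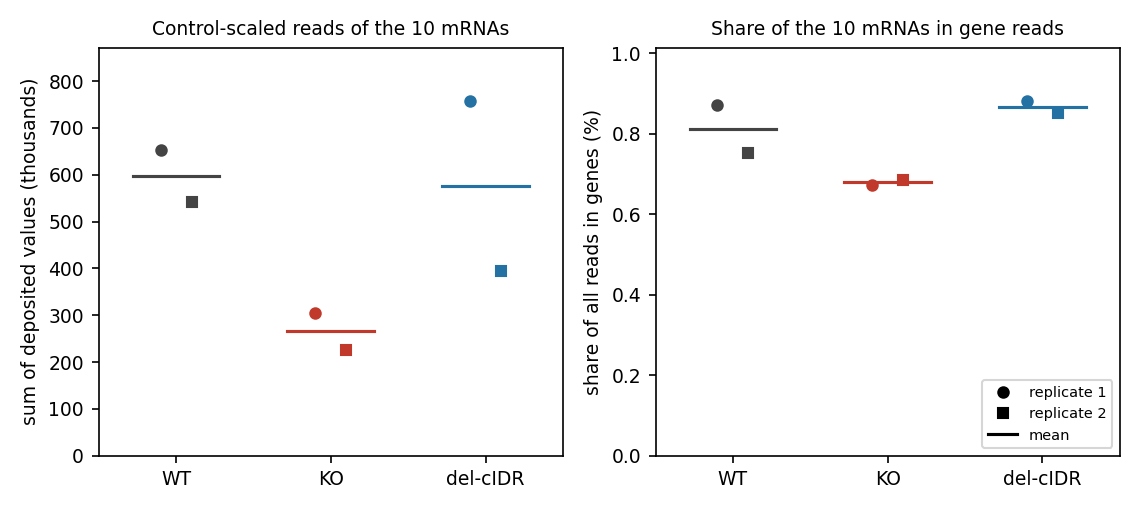
Sum of the 10 mitochondrial mRNAs in each input library, as deposited control-scaled reads (left) and as a percentage of all reads in genes (right). Points are libraries, circles replicate 1 and squares replicate 2, and lines are genotype means; on the left KO is lowest and del-cIDR spans WT, and on the right KO lies at 0.673% and 0.685%, below the other 4 libraries.

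mt-Nd5, a core subunit of complex I, which passes electrons from NADH into the chain, had deposited values of 177373 and 152730 in WT, 77138 and 56163 for KO, and 217159 and 103744 with del-cIDR. mt-Co1, the catalytic subunit of complex IV (cytochrome c oxidase), had 202720 and 165811 in WT, 96226 and 72023 for KO, and 230787 and 128973 with del-cIDR. In both genes the KO libraries lay below all others, and the del-cIDR pair enclosed the WT pair. All 10 members were lower in KO than in WT without overlap of the libraries, but 65.8% of the 29059 genes tested were too. The members' log2 differences ran from -1.32 in mt-Nd5 to -1.07 in mt-Cytb, with a median of -1.15 against -0.87 over all genes. None of the 10 passed the test (limma on log2(value + 1), adjusted p 0.144 to 0.208, with 8 at an unadjusted p under 0.05), where 1.76% of all genes were called lower and 0.0241% higher. edgeR with the deposited scaling called 0 of 10 as well, all 10 of them at an unadjusted p under 0.05, and 2.09% of all genes lower. Over all 29059 genes, 7274 had an unadjusted p under 0.05 in limma, 219 of them higher. In edgeR 6708 did, 116 of them higher. When only WT and KO were fitted all 10 were called lower, as were 41.2% of all genes in that fit, and all 10 were also called without del-cIDR replicate 1, with 42.5% of all genes. With the replicate number as a block, 4 were called (mt-Nd3, mt-Co2, mt-Co3 and mt-Atp6), and 11.9% of all genes were called lower. Other settings weakened the result. limma fits with no filter on low genes or without a variance trend called 0, and 0 members had an unadjusted p under 0.05. With 0.1 in place of 1 added to the values, 0 were called and 4 had such a p. Over all genes, 5270 of 56941, 3920 of 29059 and 6879 of 29059 had such a p, in the same order.

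In del-cIDR against WT the deposited values of all 10 members overlapped between the genotypes. The log2 differences lay between -0.50 and -0.07, with a median of -0.17, against -0.23 over all genes. None was called or had an unadjusted p under 0.05 (limma and edgeR, both 0 of 10), where 0.0206% of all genes were called lower and 0 higher by limma. Over all genes, 1378 had an unadjusted p under 0.05 in limma and 589 in edgeR. The sign of the members' median rested on a single library, since the median was 0.32 without del-cIDR replicate 2. Against KO, the del-cIDR values were higher by a median of 0.98, with 0.62 over all genes. In 9 of the 10 members both del-cIDR libraries lay above both KO libraries, as in 37.5% of all genes. The exception was mt-Atp6, at 2690 in the lower del-cIDR library and 2713 in the higher KO library. No member was called (limma, adjusted p 0.348 to 0.466, with 1 at an unadjusted p under 0.05), where 1.52% of all genes were called higher and 0.0998% lower. edgeR called 0 of 10, with 7 at an unadjusted p under 0.05, and 2.1% of all genes higher. Over all genes, 4139 had an unadjusted p under 0.05 in limma, 3755 of them higher. In edgeR 4582 did, 4394 of them higher.

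Among the reads of a library, the 10 mRNAs took a smaller share in KO than in the other genotypes. They made up 0.872% and 0.751% of gene reads in WT, 0.673% and 0.685% for KO, and 0.882% and 0.851% with del-cIDR. Wilson 95% intervals of these shares cover counting error only, and ran from 0.868% to 0.875% in WT replicate 1 and from 0.847% to 0.855% in del-cIDR replicate 2. The KO libraries were below all others, and in each genotype the replicates differed by more than their intervals. The share was 0.811% ± 0.085 in WT, 0.679% ± 0.0081 in KO and 0.866% ± 0.022 in del-cIDR (SD, n = 2 each). KO was thus at 0.837 of the WT mean, a difference of -0.132 percentage points that was -0.0722 without WT replicate 1 and -0.193 without WT replicate 2. The other ratios were 1.28 for del-cIDR over the KO mean and 1.07 for del-cIDR over the WT mean. In the exact permutation test p was 0.333, again the smallest possible, for KO against each other genotype, and 0.667 for del-cIDR against WT. The difference between del-cIDR and WT, 0.055 percentage points, was smaller than the SD of the WT libraries and turned to -0.0053 without WT replicate 2.

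Of the 5 members of complex I, mt-Nd5, mt-Nd4 and mt-Nd1 fell in KO against WT on the RPM scale, and mt-Nd5 had the largest fall of the 10. mt-Nd5 had 2369.8 and 2122 RPM in WT, 1703 and 1701 for KO, and 2528 and 2238 with del-cIDR. mt-Nd4, its neighbour on the genome and another proton-pumping subunit of the membrane arm, had 683 and 600.2 in WT, 538 and 536 for KO, and 666 and 626 with del-cIDR. For both genes the KO libraries nearly coincided and lay below all others, while WT and del-cIDR overlapped. mt-Nd5 fell by 0.40 in KO against WT on the log2(RPM + 0.1) scale (SE 0.06, limma adjusted p = 3.16e-05), and mt-Nd4 fell by 0.25 (SE 0.06, adjusted p = 0.00315).

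mt-Nd1, a membrane subunit near the quinone site of complex I, had 1021 and 884 RPM in WT, 821 and 850.0 for KO, and 1055 and 1057 with del-cIDR. It fell by 0.19 in KO (SE 0.06, limma adjusted p = 0.0273), although the lower WT library was close to the higher KO library. mt-Nd2, which also belongs to the membrane arm, had 448 and 385 in WT, 359.6 and 380.3 for KO, and 448 and 427 with del-cIDR. Its difference of -0.17 did not pass (adjusted p = 0.0679). mt-Nd3, a small membrane subunit with the fewest reads of the members, had 12.0 and 10.9 in WT, 9.41 and 9.03 for KO, and 12.1 and 10.3 with del-cIDR, and its difference of -0.31 did not pass (SE 0.13, adjusted p = 0.106). In all 3 genes both KO libraries lay below the libraries of the other genotypes.

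mt-Cytb encodes cytochrome b, the mitochondrially made subunit of complex III, which hands electrons to cytochrome c. It had 1098 and 968 RPM in WT, 925 and 941 for KO, and 1175 and 1109.6 with del-cIDR, so both del-cIDR libraries were above both WT libraries, and KO was lowest. The difference in KO against WT was -0.14 and did not pass (limma adjusted p = 0.0843). mt-Co1 had 2708 and 2304 in WT, 2125 and 2182 for KO, and 2686 and 2782 with del-cIDR, and fell by 0.21 in KO (SE 0.06, adjusted p = 0.0124).

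**Figure D2:**
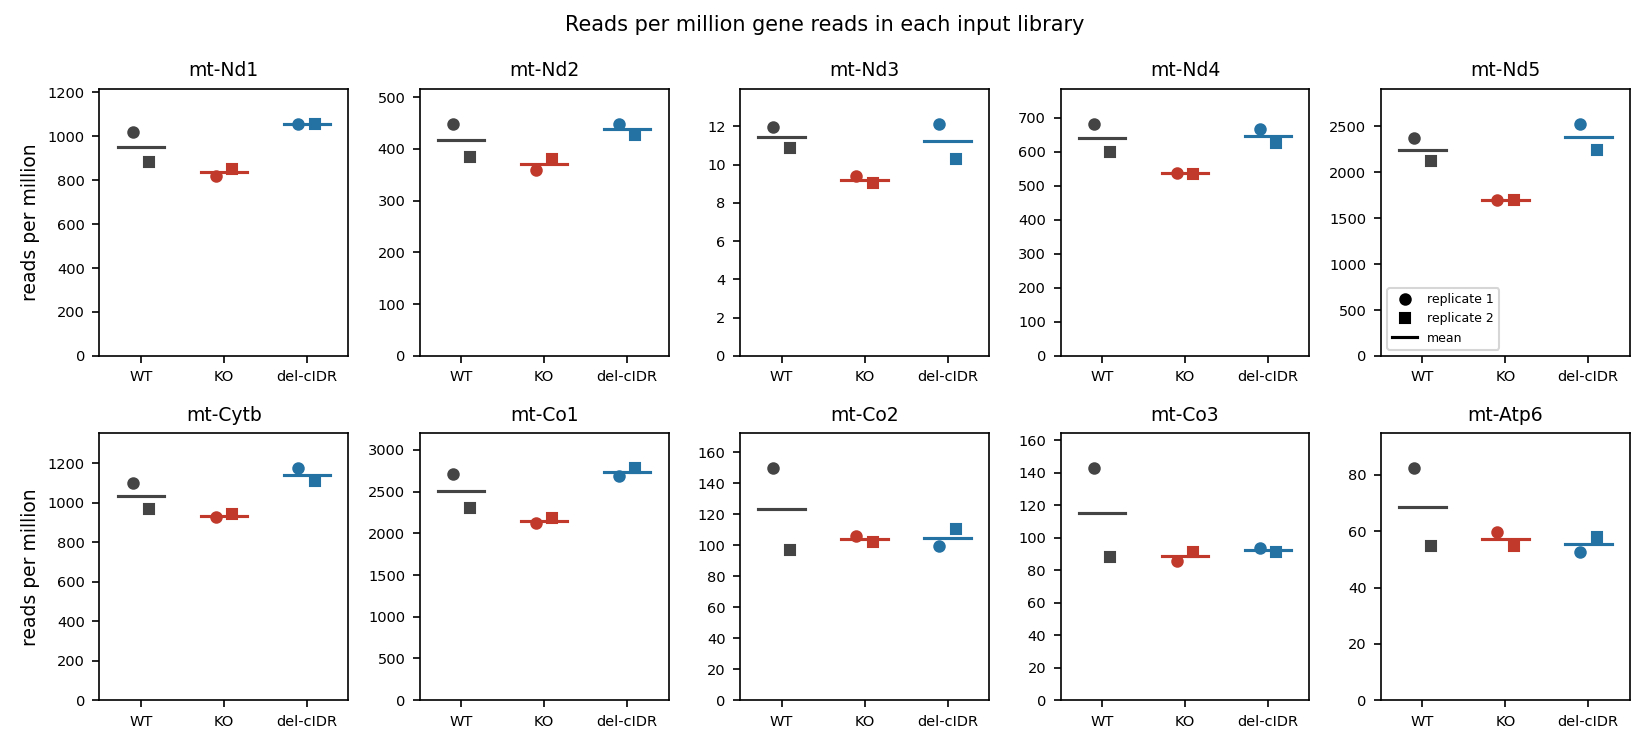
RPM, by gene reads, of each of the 10 mitochondrial mRNAs in the 6 input libraries, with genotypes on the horizontal axis and a vertical axis from 0 in each panel. Circles are replicate 1, squares replicate 2 and lines genotype means; in the 7 genes other than mt-Co2, mt-Co3 and mt-Atp6 both KO libraries lie below the WT and del-cIDR libraries, and in those 3 WT replicate 1 stands above the other 5 libraries.

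The remaining members, mt-Co2, mt-Co3 and mt-Atp6, had another pattern, in which a single WT library stood above the rest. mt-Co2, the complex IV subunit that takes electrons from cytochrome c, had 149.7 and 96.6 RPM in WT, 106 and 102 for KO, and 99.2 and 110.5 with del-cIDR. mt-Co3, a further core subunit of complex IV, had 143 and 87.9 in WT, 85.9 and 91.4 for KO, and 93.6 and 91.0 with del-cIDR. mt-Atp6, part of the proton channel of ATP synthase, had 82.5 and 54.6 in WT, 59.9 and 54.7 for KO, and 52.8 and 58.0 with del-cIDR. In each of the 3, WT replicate 1 stood apart and the other 5 libraries lay together, with WT replicate 2 among or next to them. WT replicate 1 was 1.55, 1.62 and 1.51 times WT replicate 2 in mt-Co2, mt-Co3 and mt-Atp6, and 1.10 to 1.18 times in the other 7 members. None of the 3 was called in any of the 3 comparisons (limma, RPM scale). Their differences in KO against WT were -0.21, -0.34 and -0.23, and without WT replicate 1 they were 0.11, 0.01 and 0.07. In del-cIDR against KO, without the WT group, they were 0.01, 0.06 and -0.05, against 0.24 to 0.48 in the other 7 members.

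Over the 10 members, 4 fell and none rose in KO against WT on the RPM scale (limma), where 9.63% of the 22289 genes tested were called lower and 10.6% higher. All 10 differences were below 0, with a median of -0.22, and the median over all genes was 0.01. The members are not independent of each other, so such counts are descriptions. Over the libraries, their levels correlated at r of 0.92 to 0.98 among mt-Co2, mt-Co3 and mt-Atp6. Among the other 7 members r was 0.75 to 0.99, and between the sets it was 0.19 to 0.64. In 7 of 10 members both KO libraries were below both WT libraries, as in 29.0% of all genes. edgeR with TMM scaling called 5 lower, the same 4 and mt-Co3, and 10.5% of all genes. DESeq2 called the same 4 lower, and 8.41% of all genes. The count depended on single libraries. Without WT replicate 1 the median was -0.07 and 1 member was called, mt-Nd5, at -0.32 (adjusted p = 0.00261), with 7.04% of all genes called lower. Without WT replicate 2 the median was -0.36 and 9 were called, with 6.48% of all genes called lower. Without KO replicate 1 or 2 there were 2 calls or 1 call, with 5.96% or 5.06% of all genes called lower, and mt-Nd5 was called each time. A fit of WT and KO alone called 7 lower, and 11.3% of all genes. limma fits with no filter on low genes or without a variance trend called 0, with 3 and 1 members at an unadjusted p under 0.05. They also called fewer of all genes lower, 445 of 56941 with no filter and 446 of 22289 without a trend. Over all genes, 6745 and 5595 had an unadjusted p under 0.05.

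Between the altered genotypes, 6 members were called on the RPM scale, each with the higher level in del-cIDR (limma), where 13.6% of all genes were called higher and 16.1% lower. mt-Nd5 was higher by 0.48 (SE 0.06, adjusted p = 1.17e-06), mt-Co1 by 0.34 (SE 0.06, adjusted p = 0.0001), mt-Nd1 by 0.34 (SE 0.06, adjusted p = 0.000101) and mt-Cytb by 0.29 (SE 0.06, adjusted p = 0.000413). mt-Nd4 was higher by 0.27 (SE 0.06, adjusted p = 0.00132) and mt-Nd2 by 0.24 (SE 0.06, adjusted p = 0.00546). mt-Nd3 had a difference of 0.28 with a larger error and did not pass (SE 0.13, adjusted p = 0.120). In these 7 genes both del-cIDR libraries lay above both KO libraries, as in 29.6% of all genes. mt-Co2, mt-Co3 and mt-Atp6, at 0.01, 0.06 and -0.05, overlapped between the genotypes. This comparison does not use the WT libraries as a group, and leaving out any 1 of the 6 libraries left 5 to 7 members called, with 8.53% to 13.6% of all genes called higher. edgeR and DESeq2 each called the same 6, and 14.8% and 12.3% of all genes higher. limma fits with no filter or without a variance trend called 0, with 5 and 4 members at an unadjusted p under 0.05. They also called fewer of all genes higher, 941 of 56941 with no filter and 1292 of 22289 without a trend. Over all genes, 8232 and 7154 had an unadjusted p under 0.05.

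In del-cIDR against WT no member was called on the RPM scale (limma, edgeR and DESeq2, 0 of 10 each, with 5, 5 and 2 at an unadjusted p under 0.05), where limma called 3.06% of all genes higher and 5.04% lower. Of the 22289 genes, 4767 had an unadjusted p under 0.05 in limma, 4706 in edgeR and 3473 in DESeq2. The members' differences ran from -0.28 in mt-Co3 to 0.15 in mt-Nd1, with a median of 0.04. Both del-cIDR libraries were above both WT libraries in mt-Nd1 and mt-Cytb, as in 22.1% of all genes, and the other 8 members overlapped. The smallest adjusted p was 0.123, in mt-Nd1. Without WT replicate 1, mt-Nd1, mt-Cytb and mt-Co1 were called higher, as were 1.51% of all genes. Without WT replicate 2, mt-Co2, mt-Co3 and mt-Atp6 were called lower, as were 1.97% of all genes. The 3 comparisons share libraries in pairs, so their values are not independent of each other.

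**Figure D3:**
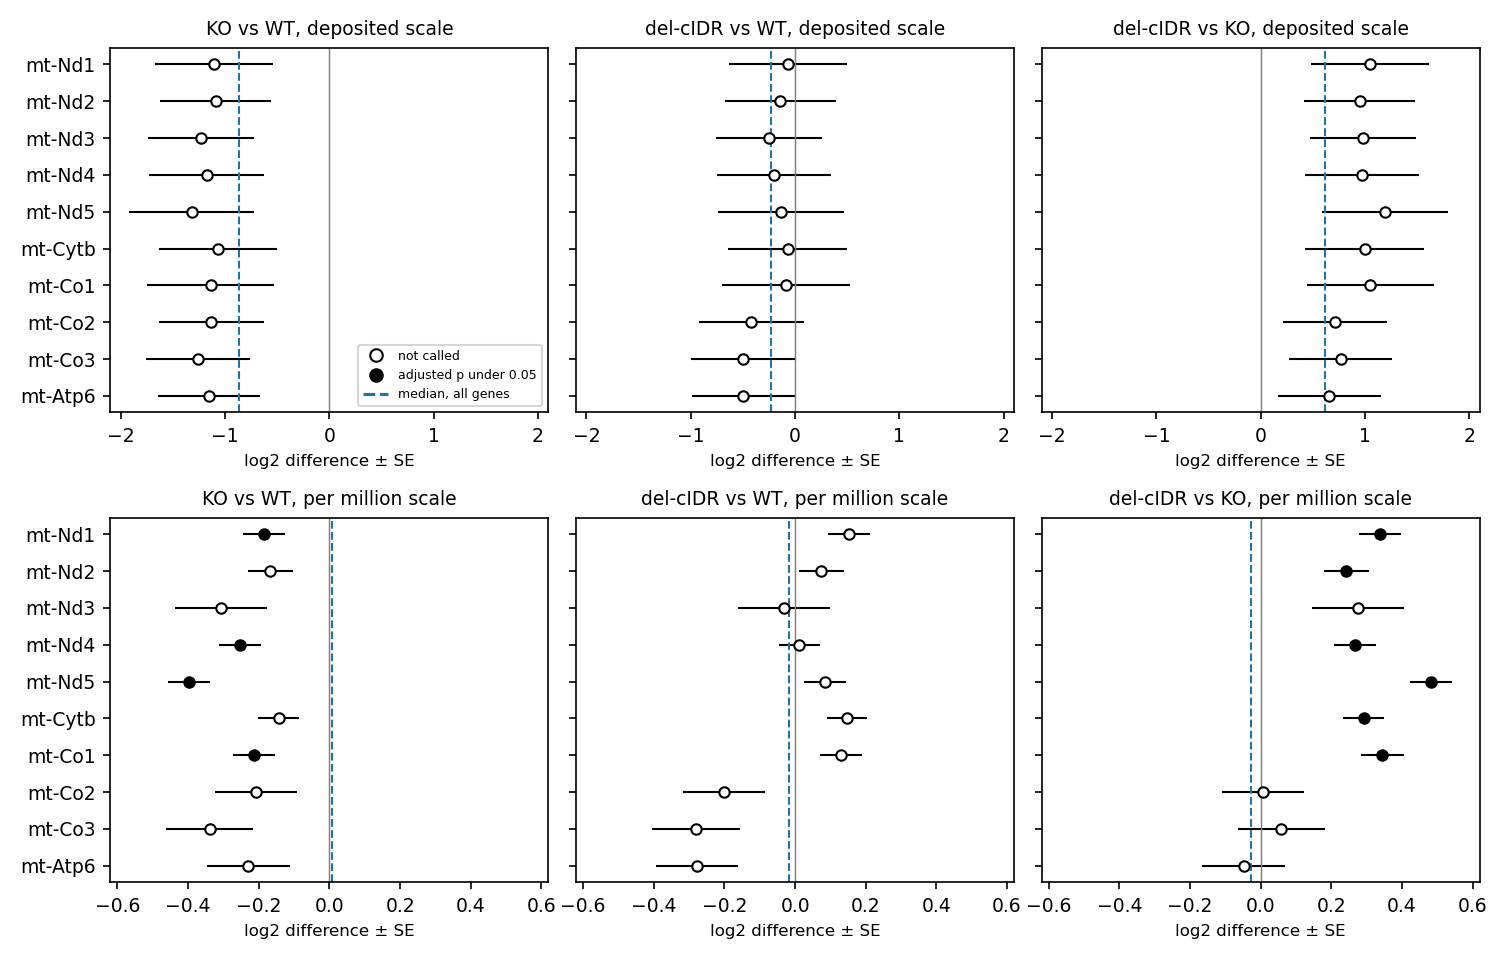
Log2 differences of the 10 mitochondrial mRNAs with their standard errors from limma, for the 3 comparisons on the deposited scale (top) and the RPM scale (bottom, with a narrower axis). Filled points passed an adjusted p of 0.05 and dashed lines are medians over all genes; no point is filled in the top row, and in the bottom row 4, 0 and 6 are filled from left to right.

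The composition of the group, that is each member as a share of the reads of all 10, does not depend on how a library is scaled. mt-Nd5 made up 27.2% and 28.2% of these reads in WT, 25.3% and 24.8% for KO, and 28.7% and 26.3% with del-cIDR. mt-Cytb made up 12.6% and 12.9% in WT, 13.7% in both KO libraries, and 13.3% and 13.0% in del-cIDR. mt-Nd5 was thus a smaller part, and mt-Cytb a larger part, in both KO libraries than in all others. Shares of a fixed sum are tied, so a smaller share of mt-Nd5 by itself makes other shares larger. In RPM, mt-Cytb was lowest in KO. mt-Nd1 stood at 11.7% and 11.8% in WT, 12.2% and 12.4% for KO, and 12.0% and 12.4% with del-cIDR. Its share was lowest in the WT libraries. mt-Nd2 had its largest shares in KO, at 5.34% and 5.55%. The shares of mt-Nd2, mt-Nd4, mt-Co3 and mt-Atp6 were lowest in both del-cIDR libraries. Counting error of such shares was small, with Wilson 95% intervals of at most 0.223 points to each side. These differences in share are given without a test.

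mt-Co2, mt-Atp6 and mt-Co3 follow each other on the mitochondrial genome, with mt-Atp8, which is no member, between the first and the second in RefSeq's gene order. This set of 3 was singled out after its values were seen. Together the 3 held 4.30% and 3.18% of the reads of the 10 members in WT, 3.74% and 3.63% for KO, and 2.79% and 3.05% with del-cIDR. WT replicate 1 was highest and both del-cIDR libraries were lowest, while mt-Co1 on one side of the stretch and mt-Nd3 on the other did not share the rise in WT replicate 1. mt-Co1 was at 0.990 and mt-Nd3 at 1.02 of its mean share over the 6 libraries in WT replicate 1, where mt-Co2 was at 1.21, mt-Atp6 at 1.22 and mt-Co3 at 1.30. Nuclear copies of mitochondrial DNA are known in the mouse genome, and reads that match both can be split or dropped in counting. The sources used here do not give how such reads were treated, so the values of all members, and of these 3 among them, are uncertain to that extent, and its part in the pattern was not tested. Leaving out the 3 genes, the other 7 took 0.834% and 0.727% of gene reads in WT, 0.648% and 0.660% for KO, and 0.857% and 0.825% with del-cIDR, which kept the order of the genotypes.

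**Figure D4:**
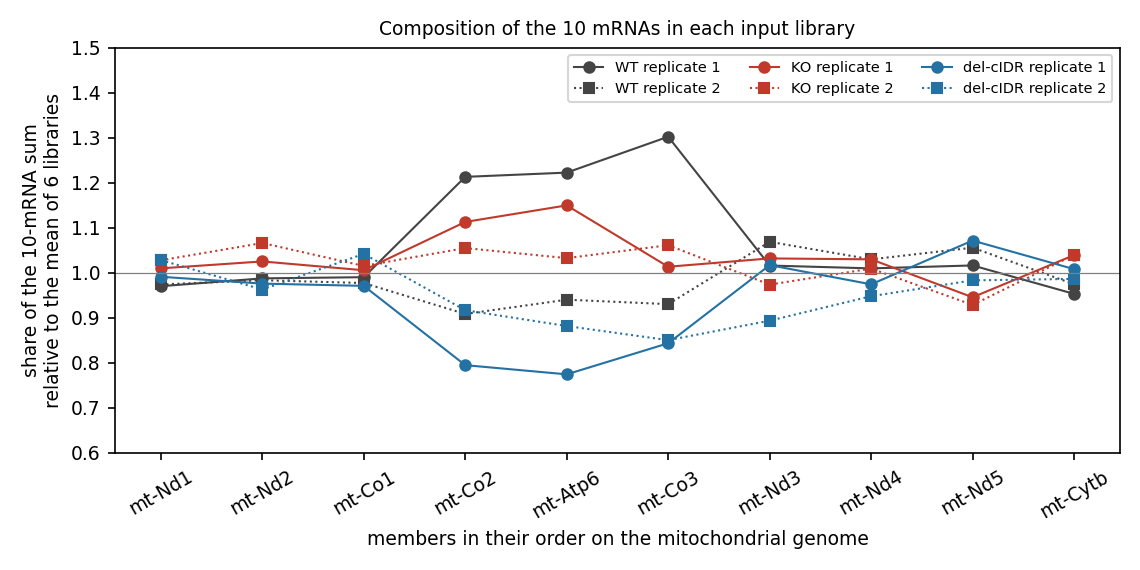
Share of each mRNA in the reads of the 10 mitochondrial mRNAs, divided by its mean share over the 6 input libraries, with genes in their order on the mitochondrial genome. Each line is a library, coloured by genotype, circles replicate 1 and squares replicate 2; WT replicate 1 rises to 1.21, 1.22 and 1.30 over mt-Co2, mt-Atp6 and mt-Co3, and the KO libraries are lowest at mt-Nd5, at 0.945 and 0.928.

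The m6A table gave no further readout of these mRNAs. None of its 12923 peaks, on 23 named chromosomes and contigs, was on the mitochondrial chromosome, so no m6A ratio of a member is given. A set of peaks without mitochondrial entries does not show that these mRNAs carried no m6A.

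Genes with a like pattern were sought among those with a mean of at least 10 RPM, by Pearson correlation with the mean log2 level of the 10 members over the 6 libraries. The highest values were 0.991 for ENSMUSG00000074884 and 0.985 for ENSMUSG00000042211, and the lowest were -0.985 for ENSMUSG00000037740 and -0.983 for ENSMUSG00000048537. ENSMUSG00000074884 had 64.3 and 58.1 RPM in WT, 56.4 and 55.5 for KO, and 60.9 and 60.7 with del-cIDR. ENSMUSG00000037740 had 44.5 and 57.2 in WT, 62.8 and 60.5 for KO, and 51.7 and 50.1 with del-cIDR. Both follow, in the same or the opposite direction, the order of the members in which WT replicate 1 and del-cIDR lie at one end and KO at the other. The libraries share genotypes and scaling, and these genes were the extremes of a search, so the correlations are descriptions.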

How the data were processed

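Per the submitters' processing notes, the authors used HISAT2, featureCounts, fastp, SAMtools, bedtools, Picard and MACS2 with the build GRCm39, and the notes give no roles or versions. The authors deposited 1 table of m6A values, a ratio of IP to input per peak, and 1 table of mRNA values, a signal of scaled reads, which in KO replicate 2 are counts. The unit of both was read from the values. Each mRNA column held whole multiples of its smallest value above 0 (100% of values, tolerance 0.001), which gave the reads. In 93.2% to 99.5% of the m6A ratios read as fractions, relative to the m6A control, the numerator was divisible by the largest prime of the whole number in the library's factor, where chance gives 0.0970% to 5.88%. Only the first peaks listed were used for this, with 3850 to 3994 ratios per library.

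Genes whose mean reached 1 (deposited) or 0.1 (RPM, reads per library total) entered limma 3.58.1 in R 4.3.3, as log2(deposited value + 1) or log2(RPM + 0.1), in 1 fit of the 3 genotypes with a variance trend and Benjamini-Hochberg adjustment over all genes at 0.05. Differences on these scales understate changes of low genes. For each gene, limma combined the gene's own spread between libraries with the trend over all genes. The weight of the trend, in prior degrees of freedom, was 19.0 in the main RPM fit. In the main deposited fit it was unlimited, so the trend replaced each gene's own spread. edgeR 4.0.16 and DESeq2 1.42.0 on the reads, other filters, pseudocounts and scalings, and leaving out each library were alternatives. Simulated reads served to check limma, edgeR and DESeq2 at their default settings only, and only the contrast of KO with WT was examined there. The deposited scaling, the other alternatives and both del-cIDR comparisons had no such check. Python 3.11.15 made the tables and plots.

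The rule for named genes was all 10 members, and the 2 genes each with the highest and lowest correlation to them. The members are picked by identifier, with no measured value in the rule, but they and the lists were chosen with earlier results of these data known. RefSeq's table (GRCm38.p6) gave names and gene order only, matched 0 of 56941 identifiers, and named all 10 members on the mitochondrial chromosome. Lengths were therefore not used, and levels of different genes are not compared. Lists of nuclear genes and cell type markers, fixed by symbol, were not analysed here.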

Additional observations from a re-analysis of the deposited data

How the results depend on the processing

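On the deposited scale, the count of members called in KO against WT was 0, but 1 with a mean of at least 10 (4.21% of all genes lower), 4 with a replicate block, 10 with only the genotypes compared, and 0 to 10 over the left-out libraries. The median difference there ran from -1.40 to -0.92, and in del-cIDR against WT from -0.68 to 0.32. On the RPM scale the 4 calls in KO against WT became 0 with no filter or without a variance trend, 7 with only the genotypes compared, 5 with a replicate block (9.24% of all genes lower), and 1 to 9 over the left-out libraries (median -0.36 to -0.069). The 6 calls in del-cIDR against KO became 0 with no filter or without a variance trend and 5 to 7 over the left-out libraries (median 0.21 to 0.32), and the 0 calls in del-cIDR against WT became 0 to 3. In the RPM fits with no filter and without a variance trend, the median differences stayed as in the main fit. They were -0.22 in KO against WT and 0.27 in del-cIDR against KO. Prior degrees of freedom in these fits were 0.67 and 1.37, against 19.0 in the main fit. The cause of the changes in calls and medians was not tested. The labels do not say that replicate numbers pair libraries. Same-numbered KO and WT libraries deviated in opposite directions over genes (r = -0.27), as did del-cIDR and WT (-0.13), but del-cIDR and KO deviated together (0.25). A block with the WT numbers exchanged, added after seeing the data, called on the RPM scale 9 members lower in KO against WT (12.1% of all genes), 2 higher and 2 lower in del-cIDR against WT (5.03% and 7.63%) and 6 higher in del-cIDR against KO (15.7%), that is 9, 4 and 6. The exchange turns the negative correlations of these same data positive by construction. Its added calls on the RPM scale are therefore no independent support. On the deposited scale the exchanged block called 0 members, with 8, 0 and 1 at an unadjusted limma p under 0.05. Over all 29059 genes, 10302, 1561 and 5810 had such a p.

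Signs turned only for differences that had not passed, among the single members. In del-cIDR against WT on the deposited scale, mt-Cytb was at 0.0049 with edgeR. Over the left-out libraries there, differences ran over mt-Nd1 -0.51 to 0.38, mt-Cytb -0.56 to 0.42, mt-Co1 -0.51 to 0.33, mt-Nd2 -0.62 to 0.34, mt-Nd3 -0.81 to 0.32, mt-Nd4 -0.70 to 0.29 and mt-Nd5 -0.67 to 0.40. On the RPM scale, mt-Nd3 was at 0.0054 after centring on library medians, and the ranges in that comparison were mt-Nd3 -0.15 to 0.088, mt-Co2 -0.52 to 0.12, mt-Co3 -0.63 to 0.069, mt-Atp6 -0.57 to 0.019, mt-Nd2 -0.036 to 0.18, mt-Nd4 -0.080 to 0.11 and mt-Nd5 -0.0029 to 0.17. In KO against WT on the RPM scale they were mt-Co2 -0.52 to 0.11, mt-Co3 -0.69 to 0.011 and mt-Atp6 -0.53 to 0.067, and in del-cIDR against KO mt-Atp6 -0.12 to 0.020 and mt-Co2 -0.071 to 0.084. No row outside the members held over 5% of a library, so that alternative for the share could not be run. The 2 libraries per genotype limit all comparisons, and read depth also limits mt-Nd3, whose 205 to 376 reads give a counting error of 5.16% to 6.98%.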

Other observations

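Libraries of the same genotype also differed in the composition of the 10 mRNAs. The distance between 2 libraries, taken as the sum of the differences in share that are above 0, was 1.55 percentage points between the WT replicates, 0.795 between the KO replicates and 2.94 between the del-cIDR replicates. Between KO and WT libraries it was 2.45 to 3.58 points, more than between the replicates of either. The del-cIDR replicates were thus farther apart than WT replicate 2 and del-cIDR replicate 1, at 1.07 points. The other pairs of a WT and a del-cIDR library were at 2.46, 2.76 and 2.86 points.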
